A study of Mus musculus with 4 samples.

Results

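The secreted and membrane-bound cues that steer growing axons, and the receptors that read them, were followed in mouse brain at embryonic day 13. The genes were chosen by name alone, as protein-coding genes of the Eph, ephrin, semaphorin, plexin, neuropilin, Slit, Robo, netrin, netrin G, Unc5 and Dcc families. There were 69 such genes, all listed in both deposited tables, out of 19500 genes listed in both. They comprised 9 EphA and 5 EphB receptors, 5 A-class and 3 B-class ephrins, 20 semaphorins, 9 plexins, 2 neuropilins, 3 Slits, 4 Robos, 2 netrins, 2 netrin Gs and 5 receptors of the Unc5 and Dcc group. The samples were 2 of brain tissue from a Wt1 conditional knockout (labelled Wt1CKO, called Wt1_CKO) and 2 with floxed Wt1 alleles that serve as the wild type (labelled WT and Wt1fl/fl, called Wt1_flfl), all on a C57BL/6 background. The labels do not give the Cre line, the cells in which it acts, the part of the brain taken, or whether a sample is 1 animal or a pool. The p-values therefore reflect the spread among these 4 samples, which may be technical. Wt1 itself was not analysed here, and the labels were not tested on the level of the deleted gene.

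Axon guidance works through pairs of cue and receptor at the growth cone, the motile tip of an axon, where most of these cues repel and some attract. Ephrins bind Eph receptor tyrosine kinases on contact between cells, with A-class ephrins held by a lipid anchor and B-class ephrins crossing the membrane. Semaphorins signal through plexins, and most secreted class 3 semaphorins need a neuropilin as co-receptor. Slits repel axons through Robo receptors at the midline, and Netrin-1 attracts axons through Dcc and repels them through Unc5 receptors. In the embryonic forebrain the same molecules also guide migrating neurons and set borders between regions.

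The tables listed 17704698 and 17159450 counts for Wt1_CKO replicates 1 and 2, and 16219310 and 17170578 counts for Wt1_flfl replicates 1 and 2. The 69 genes together took 0.608% and 0.622% of the counts in Wt1_CKO and 0.585% and 0.629% in Wt1_flfl. All 9 radial glia markers and all 10 neuron markers were listed, as were the 7 cortical and 11 ventral telencephalic ones, and none of them was at 0 in any library. Of 11 markers of midbrain, hindbrain and spinal cord, 4 were listed, and they summed to between 4.33 and 15.7 CPM (counts per 1000000 library counts, scaled by TMM). Library composition also differed. Xist, which female cells transcribe from their inactive X, had 4 counts in Wt1_CKO replicate 1 and between 13086 and 16472 in the other libraries. Choroid plexus markers, 5 of 6 listed, summed to 45.4 and 2.55 CPM in Wt1_CKO and 0.747 and 17.8 CPM in Wt1_flfl, and 8 meningeal and mesenchymal markers to 51.4 and 49.9 CPM in Wt1_CKO and 51.4 and 86.3 CPM in Wt1_flfl. A ribosomal RNA entry, CT010467.1, had 74251 counts in Wt1_flfl replicate 1 and 3058 to 7902 counts in the other libraries.

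Levels were compared between genes as RPKM, the CPM per kilobase of annotated exon. The median over the 69 genes was 7.65 RPKM. The 3 B-class ephrins had a summed level of 188 and 211 RPKM in Wt1_CKO and 198 and 200.5 RPKM in Wt1_flfl. The highest member was Efnb1, a transmembrane ephrin encoded on the X chromosome. Efnb1 reached 92.9 and 104.5 RPKM in the Wt1_CKO replicates and 102 and 85.1 RPKM in the Wt1_flfl replicates. EphB receptors, the class that binds B-class ephrins, summed to 50.2 and 57.7 RPKM in Wt1_CKO and 51.4 and 64.9 RPKM in Wt1_flfl, with Ephb2 the highest at a mean of 19.8 RPKM over the 4 samples. The 9 plexins summed to 194 and 206 RPKM in Wt1_CKO and 183 and 215 RPKM in Wt1_flfl. Plxnb2, a receptor for class 4 semaphorins, led them at 42.6 and 45.9 RPKM in Wt1_CKO and 40.6 and 47.0 RPKM in Wt1_flfl.

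Among semaphorins the leading members of the transmembrane classes stood above that of the secreted class 3. The highest member of class 6 was Sema6c, at a mean of 38.2 RPKM, and that of class 4 was Sema4c at 25.65 RPKM. With the longest transcript as length Sema4g stood above Sema4c, at 33.99 against 30.27 RPKM, and the leading gene of each other family was the same. Sema3f, which acts through Nrp2, led class 3 at 10.8 RPKM. Sema5b averaged 23.5 RPKM, and Sema7a, which is held by a lipid anchor, 12.4 RPKM. Efna2 led the A-class ephrins at a mean of 29.2 RPKM, Epha4 the EphA receptors at 25.1 RPKM and Plxna3 the A-class plexins at 34.1 RPKM. Efnb3 followed Efnb1 at 66.1 RPKM. Slit1 stood at 18.6 RPKM, far above Slit2 at 1.33 RPKM and Slit3 at 0.739 RPKM, and Robo1 at 9.25 RPKM was above Robo2 at 7.615 RPKM. Ntn1, the gene of Netrin-1, averaged 15.3 RPKM and Ntng2 19.4 RPKM. Plxnc1 averaged 7.625 RPKM, Plxnd1 17.4 RPKM, Nrp2 11.7 RPKM and Unc5a 10.55 RPKM. The lowest genes were Plxnb3, with 2 and 3 counts in Wt1_CKO and 1 and 2 counts in Wt1_flfl, Sema3d, with 8 and 7 counts in Wt1_CKO and 18 and 9 in Wt1_flfl, and Epha1, with 8 and 11 counts in Wt1_CKO and 2 and 9 in Wt1_flfl. Those 3 genes fell below the count filter, and the other 66 were tested.

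**Figure D1:**
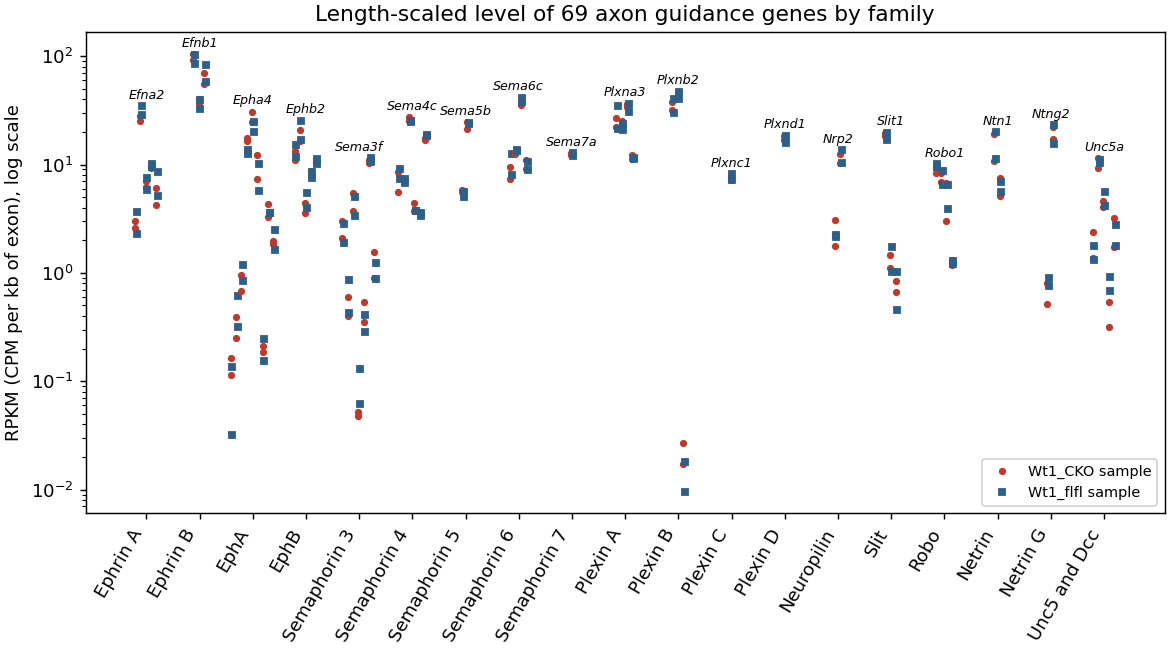
Length-scaled level (RPKM, log axis) of each of the 69 genes in each sample, by family, with Wt1_CKO samples as red circles and Wt1_flfl samples as blue squares. The gene with the highest mean in each family is named, and Efnb1 at 85.1 to 104.5 RPKM is the highest of all. The 69 genes together span a wider range than the 4 samples of any 1 gene. Samples of some low genes also spread widely, such as Epha1 at 0.0317 to 0.163 RPKM.

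The comparison of the genotypes asked whether axon guidance transcripts differ when Wt1, a zinc finger transcription factor, is conditionally deleted. None of the 66 genes passed an adjusted p of 0.05 in edgeR's quasi-likelihood test, where the background over all 15933 genes tested was 0.00628%. DESeq2 and limma-voom also called 0 of them. At an unadjusted p under 0.05 edgeR had 2 of them, against a background of 1.56%. These were Epha3, higher in Wt1_CKO (background 0.596%), and Unc5c, lower (background 0.967%). The median log2 fold change of the 66 genes was -0.00040, beside 0.0073 over all genes tested. The samples of the genotypes did not overlap for 8 of the 66 genes, with 3 higher in Wt1_CKO (4.55%, background 13.4%) and 5 lower (7.58%, background 13.5%). In both same-numbered pairs 18 genes were higher in Wt1_CKO (background 27%) and 19 were lower (background 25.9%).

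Epha3 had the smallest p of the 66 genes. This gene (chromosome 16, 63543538 to 63864158) encodes an Eph receptor for A-class ephrins. It had 153 and 142 CPM in the Wt1_CKO replicates and 119 and 110 CPM in the Wt1_flfl replicates, so both Wt1_CKO samples lay above both Wt1_flfl samples. The means were 147 ± 7.71 CPM in Wt1_CKO and 114 ± 6.15 CPM in Wt1_flfl (SD, n = 2 each), a fold of 1.29. On the log2 scale this was 0.37 (SE 0.0765), with the same rounded value in each same-numbered pair. Its unadjusted p was 0.0141 and its adjusted p was 1 with edgeR, so the difference did not pass over all genes.

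Epha4 (chromosome 1, 77367185 to 77515088), a receptor that binds ephrins of both classes, had 248 and 201 CPM in Wt1_CKO and 200 and 159 CPM in Wt1_flfl. The groups were apart by less than 1 CPM at their nearest samples. The log2 fold change of Epha4 was 0.32 (SE 0.224), with 0.31 in pair 1 and 0.34 in pair 2, and edgeR's adjusted p was 1. Leaving out 1 library moved it to between 0.16 (without Wt1_flfl replicate 2) and 0.49 (without Wt1_flfl replicate 1). Epha5 (chromosome 5, 84054761 to 84417382), a further receptor for A-class ephrins, had 203 and 122 CPM in Wt1_CKO and 170 and 95.9 CPM in Wt1_flfl. Here the groups overlapped, since replicate 1 of each genotype lay far above replicate 2. The log2 fold change of Epha5 was 0.30 (SE 0.551), with 0.26 in pair 1 and 0.35 in pair 2. It turned to -0.06 without Wt1_CKO replicate 1 and -0.11 without Wt1_flfl replicate 2. Leaving out 1 library sets 1 replicate number against both, so the replicate difference enters those values. Among the other EphA receptors, Epha7 had 42.4 and 32.3 CPM in Wt1_CKO and 35.3 and 35.1 CPM in Wt1_flfl, and Epha10 had 1.80 and 2.85 CPM in Wt1_CKO and 2.304 and 4.44 CPM in Wt1_flfl. EphA receptors summed to 661.5 and 516 CPM in Wt1_CKO, against 543 and 419.5 CPM in Wt1_flfl, so the groups overlapped. Epha3, Epha4 and Epha5 made up most of each sum. In bulk tissue a change in the number of cells of a type and a change in RNA per cell cannot be told apart.

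Epha3, Epha4 and Epha5 were the tested EphA genes higher in Wt1_CKO in both pairs, and Unc5c was the gene with the largest fold change of the 66, so the promoters of these 4 genes are shown. Each is the RefSeq promoter on GRCm38.p6, 5′ to 3′ on the strand of the gene, 300 bases around the start that RefSeq gives. That start can differ from the one in the deposited tables, and the Unc5c window lies downstream of the start that those tables give for this gene, inside it. Capitals mark GNGNGGGAG, a loose spelling of the motif bound by WT1, or its reverse complement CTCCCNCNC.
Epha3 (chr16:63864126-63864425, minus strand): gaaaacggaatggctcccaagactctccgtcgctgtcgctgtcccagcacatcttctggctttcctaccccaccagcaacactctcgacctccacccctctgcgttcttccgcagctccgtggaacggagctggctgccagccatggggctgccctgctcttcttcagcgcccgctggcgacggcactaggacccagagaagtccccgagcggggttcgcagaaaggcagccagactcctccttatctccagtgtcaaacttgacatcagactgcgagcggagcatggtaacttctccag
Epha4 (chr1:77515039-77515338, minus strand): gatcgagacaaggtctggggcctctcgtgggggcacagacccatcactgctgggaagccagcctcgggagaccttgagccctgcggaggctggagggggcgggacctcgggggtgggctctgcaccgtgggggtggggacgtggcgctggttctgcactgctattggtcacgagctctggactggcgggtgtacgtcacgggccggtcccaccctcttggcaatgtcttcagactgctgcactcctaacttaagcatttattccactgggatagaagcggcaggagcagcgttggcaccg
Epha5 (chr5:84417333-84417632, minus strand): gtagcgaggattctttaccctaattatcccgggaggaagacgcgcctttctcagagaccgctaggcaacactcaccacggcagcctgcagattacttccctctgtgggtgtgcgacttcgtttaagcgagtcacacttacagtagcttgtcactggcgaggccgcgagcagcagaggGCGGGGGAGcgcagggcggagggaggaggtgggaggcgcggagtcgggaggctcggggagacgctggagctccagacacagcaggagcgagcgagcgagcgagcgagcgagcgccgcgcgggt
Unc5c (chr3:141465314-141465613, plus strand): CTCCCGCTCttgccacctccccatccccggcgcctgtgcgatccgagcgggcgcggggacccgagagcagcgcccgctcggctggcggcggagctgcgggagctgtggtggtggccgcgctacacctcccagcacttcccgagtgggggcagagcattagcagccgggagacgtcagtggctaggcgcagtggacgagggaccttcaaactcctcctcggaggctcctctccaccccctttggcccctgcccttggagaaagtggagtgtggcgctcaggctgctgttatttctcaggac
The letters occurred in the Epha5 and Unc5c windows, once each, and not in the Epha3 and Epha4 windows. Of 32851 RefSeq promoters, 17.5% held the motif on either strand. Promoters were found for 59 of the 69 genes, with 75 promoters among them, of which 27 held the motif. These promoters and the 32851 were not matched for base content or for promoters per gene, and the shares were not tested against each other. A match in letters is not a binding site.

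None of the EphB receptors and ephrins passed. Of 5 EphB receptors, 3 were lower in Wt1_CKO in both pairs and 1 was higher, and their log2 fold changes ran from -0.22 to 0.04. Efna2, a lipid-anchored ephrin, had 53.5 and 60.05 CPM in Wt1_CKO and 61.3 and 74.1 CPM in Wt1_flfl. Its groups did not overlap, yet its log2 fold change of -0.25 (SE 0.160) did not pass (edgeR adjusted p 1), and it was -0.11 without Wt1_flfl replicate 2. Efna5, a lipid-anchored ephrin known for mapping of retinal axons, had 17.0 and 24.6 CPM in Wt1_CKO and 20.8 and 34.4 CPM in Wt1_flfl, which overlapped. Its log2 fold change was -0.39 (SE 0.449), and -0.02 without Wt1_flfl replicate 2. Efnb1 and Efnb2 had log2 fold changes of 0.08 and 0.11, and Efnb3 one of -0.15.

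The 19 tested semaphorins had log2 fold changes between -0.30 and 0.34, and none passed. Of these, 10 were higher in Wt1_CKO in both pairs (background 27%) and 6 were lower (background 25.9%). Sema3e, a secreted ligand of Plxnd1, had 5.003 and 3.25 CPM in Wt1_CKO and 3.80 and 2.63 CPM in Wt1_flfl, with a log2 fold change of 0.34 (SE 0.396) that was 0.04 without Wt1_CKO replicate 1 and 0.64 without Wt1_CKO replicate 2. Sema4d, a ligand of Plxnb1, had 33.7 and 28.75 CPM in Wt1_CKO and 28.8 and 28.5 CPM in Wt1_flfl, and only Wt1_CKO replicate 1 stood above the rest. Sema6a, a transmembrane ligand of A-class plexins, had 64.4 and 82.9 CPM in Wt1_CKO and 70.7 and 109 CPM in Wt1_flfl. Its log2 fold change was -0.26 (SE 0.360), with -0.14 in pair 1 and -0.39 in pair 2, and 0.046 without Wt1_flfl replicate 2. Sema4g and Sema6b were lower in both Wt1_CKO samples than in both Wt1_flfl samples, by log2 fold changes of -0.11 and -0.10, and Sema4f was higher by 0.07. None of these differences passed edgeR's test. Plexins and neuropilins stayed within -0.16 and 0.12 on the log2 scale. The largest of these that kept its sign in both pairs was Plxna2, which had 429 and 400 CPM in Wt1_CKO and 408 and 358 CPM in Wt1_flfl. Its log2 fold change of 0.12 was 0.02 without Wt1_flfl replicate 2.

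Unc5c (chromosome 3, 141465216 to 141834924), a Netrin-1 receptor for repulsion, had the largest fold change of the 66 genes. It had 10.3 and 6.10 CPM in Wt1_CKO (183 and 105 counts) and 13.01 and 17.5 CPM in Wt1_flfl (209 and 299 counts). Both Wt1_CKO samples lay below both Wt1_flfl samples. The means were 8.19 ± 2.96 CPM in Wt1_CKO and 15.2 ± 3.15 CPM in Wt1_flfl (SD, n = 2 each), a log2 fold change of -0.92 (SE 0.427). The pairs differed in size, at -0.34 in pair 1 and -1.50 in pair 2, and edgeR gave an unadjusted p of 0.0213 and an adjusted p of 1. Leaving out 1 library, the log2 fold change of Unc5c lay between -0.55 (without Wt1_CKO replicate 2) and -1.29 (without Wt1_CKO replicate 1). In the authors' deposited tables Unc5c was the only one of the 69 genes marked as significant, as lower in pair 2, where they give a log2 fold change of -1.51. That mark compares 1 library with 1 library. In the authors' deposited tables it stood on 1.68% of the 19500 genes as higher and 1.38% as lower in pair 1, and on 1.25% as higher and 1.88% as lower in pair 2. Ntn1, which encodes its ligand, had 67.6 and 120 CPM in Wt1_CKO and 71.2 and 125 CPM in Wt1_flfl.

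Dcc, Slit2 and Slit3 moved in opposite directions in the pairs. Dcc, the attractive Netrin-1 receptor, had 31.1 and 18.1 CPM in Wt1_CKO and 17.4 and 23.4 CPM in Wt1_flfl. On the log2 scale Dcc differed by 0.84 in pair 1 and by -0.37 in pair 2. Slit2, a midline repellent, had 37.1 and 28.2 CPM in Wt1_CKO and 25.9 and 44.5 CPM in Wt1_flfl, with 0.52 in pair 1 and -0.66 in pair 2. Slit3 had 5.06 and 4.01 CPM in Wt1_CKO and 2.74 and 6.14 CPM in Wt1_flfl, with 0.86 in pair 1 and -0.60 in pair 2. Both Wt1_CKO values of Slit2 and Slit3 lay between the Wt1_flfl values, those of Dcc overlapped them, and no direction by genotype can be given. Robo1, the main Slit receptor in level here, had 137 and 153 CPM in Wt1_CKO and 156 and 165 CPM in Wt1_flfl. The Robo1 groups did not overlap, with a log2 fold change of -0.15 (SE 0.0906) that did not pass and was -0.07 without Wt1_CKO replicate 1.

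**Figure D2:**
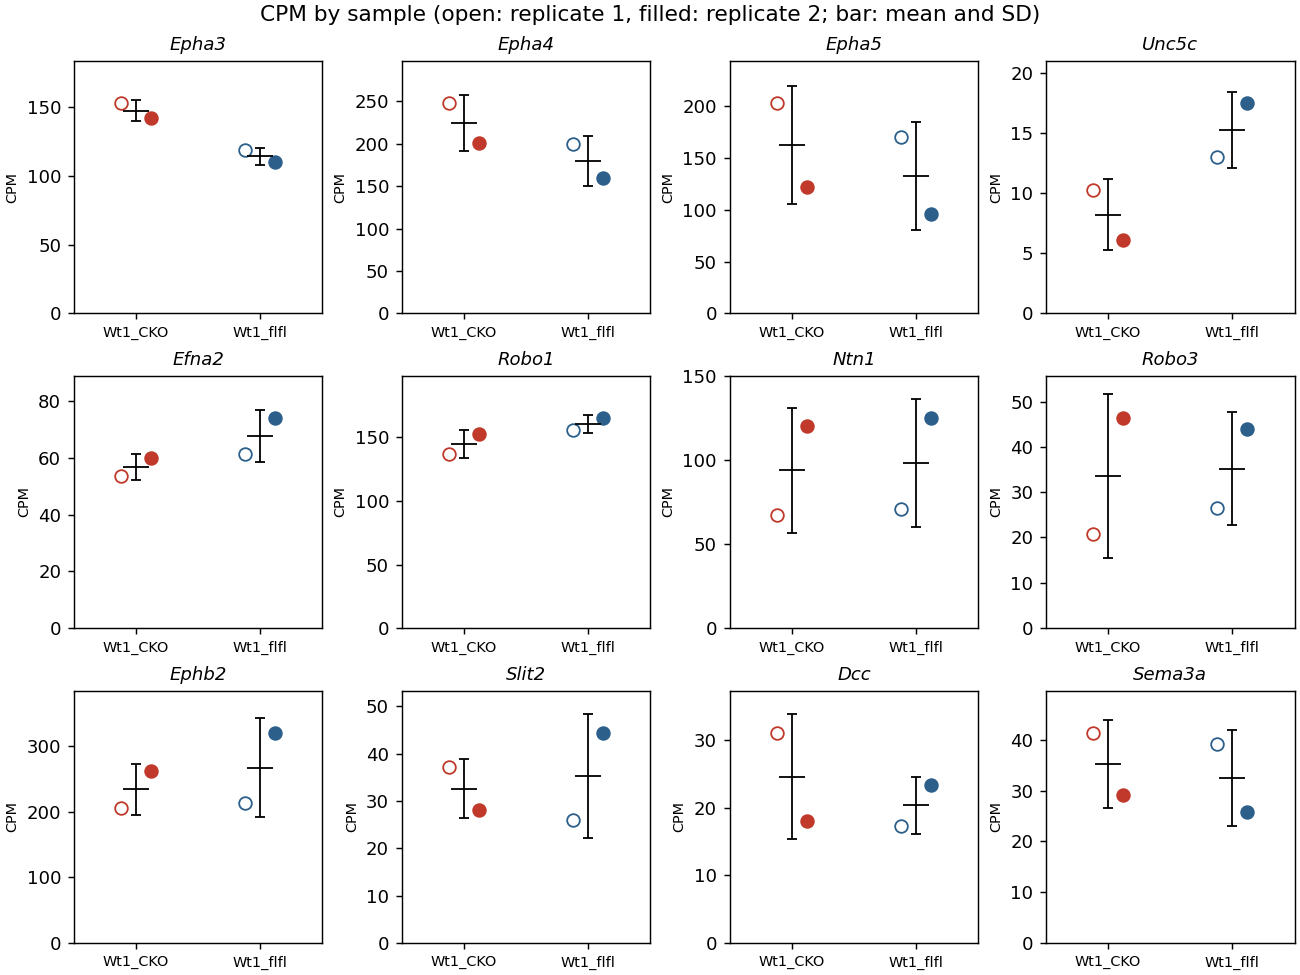
CPM in each sample for 12 of the genes, Wt1_CKO left of Wt1_flfl, with open circles for replicate 1, filled circles for replicate 2, and bars for the mean and SD (n = 2). Epha3 separates by genotype in both replicates, while Ntn1 and Robo3 separate by replicate number and Dcc and Slit2 cross over.

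Regional and neuronal markers were read beside these values, and no gene on their lists passed edgeR's test. Over all genes tested 27% were higher and 25.9% lower in Wt1_CKO in both pairs. The summed level of the 8 thalamic and habenular markers was 109 and 115 CPM in Wt1_CKO and 199 and 147.5 CPM in Wt1_flfl. Of the 8, 5 were lower in both pairs and 0 higher, by unlike amounts. Olig3 had 1.18 and 1.05 CPM in Wt1_CKO and 11.3 and 9.18 CPM in Wt1_flfl. Lhx9 had 39.0 and 42.3 CPM in Wt1_CKO and 51.3 and 40.5 CPM in Wt1_flfl. The 11 ventral telencephalic markers summed to 1236 and 1729 CPM in Wt1_CKO and 1531 and 1972 CPM in Wt1_flfl, and 9 of the 11 were lower in both pairs. The 7 markers of cortical projection neurons summed to 1994 and 1322 CPM in Wt1_CKO and 1790 and 1187 CPM in Wt1_flfl, and 5 of the 7 were higher in both pairs. General neuron markers summed to 5879 and 5366 CPM in Wt1_CKO and 6266 and 5862 CPM in Wt1_flfl, and 7 of the 10 were lower in both pairs. Samples of the genotypes overlapped in the ventral telencephalic, cortical and neuronal sums and not in the thalamic one. The part of these cells in the values of Epha3, Epha4, Epha5 and Unc5c was not tested.

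Replicate number separated the axon guidance genes more often than genotype. In 49 of the 66 genes (74.2%) both replicate 2 samples lay on the same side of both replicate 1 samples, beside 49.7% of all genes tested. Genotype separated 12.1% of the 66 genes and 26.9% of all genes. Above a mean level of 10 CPM, replicate number separated 76.4% of 55 members and 52.7% of all genes. Of the 49, 28 were higher in replicate 2 (background 24.7%) and 21 were lower (background 25%). The median absolute difference by replicate number was 0.22 on the log2 scale for the 66 genes and 0.17 for all genes tested, whereas by genotype it was 0.09 and 0.12. No label says what the replicate number stands for.

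**Figure D3:**
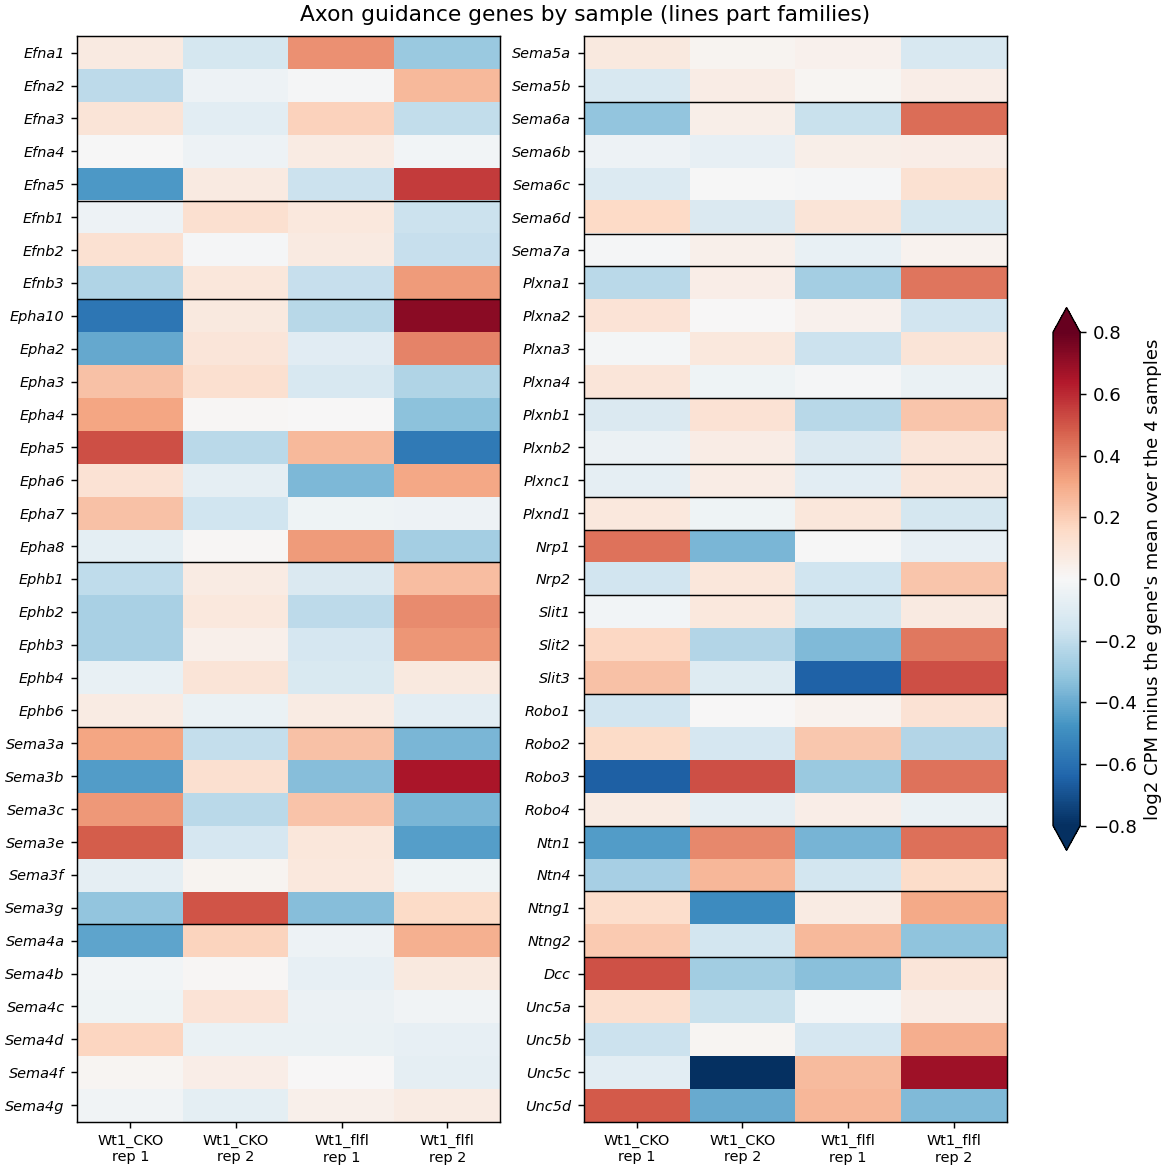
Log2 CPM of each of the 66 tested genes in each sample, minus the mean of the gene over the 4 samples, with families parted by lines and colours capped at 0.8. Many rows, such as Ntn1, Robo3, Sema3a and Epha5, share their colour within a replicate number and not within a genotype.

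Ntn1 had 120 and 125 CPM in the replicate 2 samples of Wt1_CKO and Wt1_flfl, and 67.6 and 71.2 CPM in the replicate 1 samples. Robo3, a Robo family member that lets commissural axons reach the midline, had 46.4 CPM in Wt1_CKO and 44.01 CPM in Wt1_flfl for replicate 2, and 20.7 CPM in Wt1_CKO and 26.4 CPM in Wt1_flfl for replicate 1. On the log2 scale the replicate difference was 0.82 for Ntn1 and 0.95 for Robo3, the highest of the 66 genes. Higher in replicate 2 in both genotypes were also Efna5, Ephb1, Ephb2, Ephb3, Efnb3, Plxna1, Plxnb1, Nrp2 and Sema6a, with replicate differences of 0.31 to 0.63. Lower in replicate 2 were Epha5 at -0.78, Unc5d at -0.75, Sema3c at -0.58, Sema3e at -0.56, Sema3a at -0.55, Ntng2 at -0.47 and Robo2 at -0.37. Receptors and ligands were in both directions. The counts of Ntng2 and Plxna1 are uncertain, since exons of another gene overlap their exons.

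**Figure D4:**
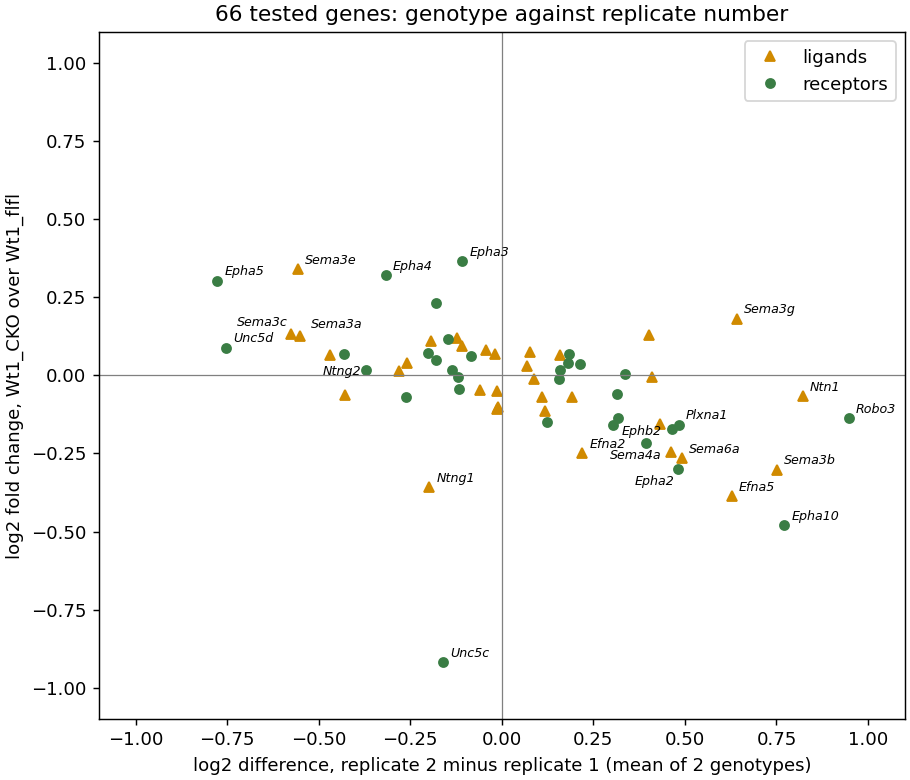
Log2 fold change by genotype (vertical axis, Wt1_CKO over Wt1_flfl) against the log2 difference by replicate number (horizontal axis, replicate 2 minus replicate 1, mean of the genotypes) for the 66 tested genes, on equal scales. The points spread more along the horizontal axis, from -0.78 for Epha5 to 0.95 for Robo3, and Unc5c at -0.92 is the lowest on the vertical axis.

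Sums of the cortical and ventral telencephalic markers differed by replicate number too. The thalamic and habenular sums overlapped by replicate number, at 109 and 115 CPM in Wt1_CKO replicates 1 and 2 and 199 and 147.5 CPM in those of Wt1_flfl. The cortical projection neuron markers summed to 1322 and 1187 CPM in replicate 2 of Wt1_CKO and Wt1_flfl, against 1994 and 1790 CPM in replicate 1. Ventral telencephalic markers summed to 1729 and 1972 CPM in replicate 2, against 1236 and 1531 CPM in replicate 1. For erythroid markers the sums were 1654 and 1673 CPM in replicate 2, against 702 and 776 CPM in replicate 1. The part of these lists in the replicate differences of the guidance genes was not tested.

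The wider guidance machinery was read from 100 further genes, of which 99 were tested and 0 passed edgeR's test, with 0 at an unadjusted p under 0.05 and 0 called by DESeq2. Of 57 intracellular effectors 24 were lower in Wt1_CKO in both pairs and 7 were higher, where the background over all genes was 25.9% lower and 27% higher. Of 15 adhesion molecules 3 were lower and 4 higher, and of 27 other cues and receptors 10 were lower and 6 higher. The lowest p among the lower genes was that of Fyn, a Src-family kinase used by several guidance receptors. Fyn had 199 and 195 CPM in Wt1_CKO and 229 and 228 CPM in Wt1_flfl, a log2 fold change of -0.22 (SE 0.0132) with an unadjusted p of 0.0765 in edgeR. Evl, an actin regulator of growth cones, had 288 and 299.8 CPM in Wt1_CKO and 329 and 339 CPM in Wt1_flfl. Dscaml1, an adhesion molecule, had 73.2 and 70.96 CPM in Wt1_CKO and 97.7 and 74.75 CPM in Wt1_flfl. Boc and Cdon, co-receptors for Sonic hedgehog, were among the higher genes. Boc had 78.02 and 73.6 CPM in Wt1_CKO and 71.55 and 56.75 CPM in Wt1_flfl, and Cdon had 199 and 121 CPM in Wt1_CKO and 143 and 93.6 CPM in Wt1_flfl. Cntn2, a contactin of axons, had 541 and 317 CPM in Wt1_CKO and 396 and 278.5 CPM in Wt1_flfl. Samples of the genotypes overlapped for Cdon and Cntn2 and did not for Boc, Fyn, Evl and Dscaml1. These genes were named for the smallest p among further genes with the same sign in both pairs, so agreement was part of that choice. Over all genes tested, both Wt1_CKO samples lay above both Wt1_flfl samples in 13.4% and below them in 13.5%.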

How the data were processed

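Poly(A)-enriched RNA was sequenced from 4 mouse brain samples at embryonic day 13. The authors deposited whole-number counts per Ensembl gene in 2 tables, each with 1 Wt1_CKO and 1 Wt1_flfl library of the same number, called pair 1 and pair 2. Per the submitters' processing notes, Bowtie2 2.2.3, TopHat2 2.0.12, HTSeq 0.6.0 and mm9 were used, with no further step stated, and the labels do not say whether strand was kept. Positions are as the tables give them. For 61 of the 69 members, Epha3 not among them, they equal those of GENCODE vM21 on GRCm38. The authors' log2 fold change and adjusted p-value in each deposited table compare 1 library with 1 library (the test is not given in the sources used here). All genes they mark as significant have an adjusted p below 0.05 and a log2 fold change of 1 or more in size.

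Genes present in the 2 tables were fitted from their deposited counts by edgeR 4.0.16 under R 4.3.3 (filterByExpr with a minimum count of 10, TMM, quasi-likelihood F test with genotype as the only term, Benjamini-Hochberg adjustment over all 15933 genes). CPM values are TMM-scaled, and log2 fold changes subtract mean log2 CPM (prior count 2); their SE comes from the SDs over n = 2 per group and is itself imprecise. RPKM divides CPM by the union of GENCODE exons. The test was also run on simulated counts of independent samples, with changes larger than that of any member. That run does not cover smaller changes or samples that vary together by replicate number. Members came from a name pattern that does not use the counts, though earlier results of these data were known, as they were when the lists were chosen. Named members were those with the highest level in each family, the largest disagreement between pairs and the smallest p per direction. The smallest p was sought only among genes whose groups did not overlap or whose pairs shared a sign, so agreement was part of that choice. The genes in the account of replicate number and the 4 promoters were chosen after their values were seen. Alternatives were a replicate block, leaving out each library, DESeq2 1.42.0 and its size factors, other count filters, limma-voom of limma 3.58.1, protein-coding genes only and the longest transcript as length. Exons of another gene cover more than 10 percent of the exon bases of Efna3, Efna4, Ntng2 and Plxna1, so their counts are uncertain.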

Additional observations from a re-analysis of the deposited data

How the results depend on the processing

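No axon guidance gene passed the adjusted threshold under any alternative run. Over all genes the count of calls, 1 in the reported fit, was 42 with a replicate block, 5 with DESeq2 and 0 with protein-coding genes only, and 3, 7, 73 and 29 when Wt1_CKO replicate 1, Wt1_CKO replicate 2, Wt1_flfl replicate 1 and Wt1_flfl replicate 2 were left out in turn. Without 1 library the median log2 fold change of the members ran from -0.0589 to 0.0272, beside -0.00040 in the reported fit. Same-numbered samples deviated together (r = 0.398 across 10140 genes of at least 10 CPM, which are not independent replicates, and 0.575 across the 66 members), and each deposited table sets same-numbered libraries side by side, but no label says what a number shares, and 2 pairs are too few to treat the numbers as pairing. With the replicate block the smallest edgeR adjusted p of a member was 0.114, for Epha3. In that fit 7 of the 66 members had an unadjusted p under 0.05. So did 12 of the 99 further guidance genes and 1146 of all 15933 genes tested. Of the 99 genes 1 passed, Cdon (edgeR adjusted p 0.0482), where 42 of all genes passed. Without Wt1_flfl replicate 1 the smallest adjusted p of a member was 0.216. Leaving out 1 library each, the log2 fold change turned direction for Dcc (-0.158 to 0.626), Slit2 (-0.458 to 0.318) and Slit3 (-0.436 to 0.693), whose pairs disagreed. It also turned for Epha5 (-0.108 to 0.718), Sema6a (-0.574 to 0.046) and Cntn2 (-0.0688 to 0.703), whose pairs had the same sign. Without 1 library, 1 replicate number stands against both, so the replicate difference enters these values. The log2 fold change ran from 0.063 to 0.785 for Cdon, from 0.0831 to 0.418 for Boc and from -0.438 to -0.0513 for Dscaml1. For Epha10 the range was -0.936 to -0.0232 and for Sema4d 0.00613 to 0.235. With the longest transcript as length the median level was 10.03 RPKM, against 7.65 RPKM. Of the 66 genes 46 separated by replicate number when listed library totals replaced TMM, an alternative added after the data were seen, as was the count among genes of at least 10 CPM. With n = 2 per genotype a difference smaller than the spread between these samples is not detectable, and a missed threshold does not show that a gene did not differ.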

Other observations

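Some of these genes lie together in the genome. Sema3a, Sema3c, Sema3d and Sema3e lie on chromosome 5 between 12383385 and 17730268. Of these, Sema3a, Sema3c and Sema3e were lower in both replicate 2 samples than in both replicate 1 samples, and Sema3d had too few counts to be tested. Over all genes tested 25% were lower and 24.7% were higher in this way. Sema3b and Sema3f lie on chromosome 9 and Sema3g on chromosome 14, and Sema3b and Sema3g were higher in replicate 2 by 0.75 and 0.64 on the log2 scale, whereas Sema3f overlapped. The ephrins Efna1, Efna3 and Efna4 lie on chromosome 3 between 89271733 and 89338028. All 3 were lower in replicate 2 (background 25%), with log2 differences of -0.43, -0.28 and -0.06. The counts of Efna3 and Efna4 are uncertain, since exons of another gene overlap their exons. Robo3 and Robo4 are neighbours on chromosome 9, and Robo4, a receptor of blood vessels, did not share the difference of Robo3, with 6.91 and 6.27 CPM in Wt1_CKO and 6.85 and 6.37 CPM in Wt1_flfl. These groupings were made after the values were seen and were not tested.

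Among the 3 members on the X chromosome, Efnb1 and Plxna3 were well counted. Plxna3, a receptor for class 3 semaphorins, had 265 and 284 CPM in Wt1_CKO and 238 and 287 CPM in Wt1_flfl. Wt1_CKO replicate 1, the library with 4 counts of Xist, was neither the highest nor the lowest of the 4 for Plxna3, and its Efnb1 level of 321 CPM also lay within the range of the Wt1_flfl samples, 351 and 294 CPM.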
